A study of Arabidopsis thaliana with 8 samples.

Results

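The genes described here are those of the chloroplast genome of Arabidopsis thaliana. They are the protein-coding genes that the organelle kept from its cyanobacterial ancestor. Members were the probe sets paired with 1 gene in the probe annotation, with a probe number under a fixed limit (members ran from 244932.0 to 245050.0) and a symbol beginning with ndh, psa, psb, pet, atp, rpo, rps, rpl, ycf, rbcL, clpP, matK, accD, ccsA or cemA. Members also had to lie on the plastid genome by gene identifier, which left out any mitochondrial genes. This gave 69 probe sets for 69 genes out of 22746 probe sets other than controls. How many probe sets the identifier step left out is not given here. A further 9 probe sets with such symbols were each paired with several genes and are not analysed here.

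The arrays measured transcripts in the vegetative shoot apex, the growing tip with the youngest leaves, of plants kept for 20 days in short days. Each of 4 genotypes had 2 arrays. Col-0 is the wild type. The mutant se-1 has a weak allele of SERRATE, a zinc-finger protein of microRNA processing, and ago1-27 has a weak allele of ARGONAUTE1, the protein that microRNAs guide to their targets. The line se-1 p35S::MIR156 is se-1 with a transgene for the microRNA miR156 behind the viral 35S promoter, which is active in most cell types and is not specific to the apex.

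Chloroplast genes encode core subunits of the photosynthetic complexes, part of the organelle's own ribosome, and a bacterial-type RNA polymerase. Most are transcribed together in long units that are then cut, spliced and edited, so that the level of each mature transcript depends on processing and decay as well as on transcription. Nuclear genes supply the other subunits of the same complexes, the factors that process chloroplast RNA, and a separate phage-type polymerase. In a shoot apex the plastids range from small proplastids in the meristem to young chloroplasts in the leaf primordia.

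Signals are the authors' linear probe set intensities, and each array had the same trimmed mean. Background was taken from 27 probe sets for bacterial transcripts absent from plants, whose highest signal lay between 14.2 and 34.1 per array. RNA integrity was read from actin probe sets at both ends of the transcript. Their 3'/5' ratio reached 4.83 and 4.40 on the ago1-27 arrays and lay between 2.81 and 4.22 on the other 6. The same ratio for GAPDH, another control gene, was 1.55 and 1.41 in ago1-27 and lay between 1.18 and 1.43 on the other 6. The part of RNA integrity in the differences of ago1-27 given here was not tested. The labelling kit named in the labels primes from poly(A) tails. Chloroplast transcripts mostly lack stable tails, so these signals need not follow transcript abundance, and this was not tested. The SERRATE probe set gave 132 ± 4.56 (SD, n = 2) in Col-0 and 117 ± 0.0955 in se-1 (limma adjusted p = 0.839), and whether it covers the se-1 lesion is not given in the sources used here. ARGONAUTE1 and miR156 are not analysed here. Of 13 shoot apex markers listed, CLV3 and UFO had a probe set and both were too dim to test, so the labelled tissue could not be checked. Of 7 root markers, 3 had a probe set, EXPA7 and EXPA18 were too dim to test, and the root and hypocotyl beta-glucosidase gene PYK10 fell in ago1-27, from 1663 ± 20.8 in Col-0 to 167 ± 61.8 (limma adjusted p = 3.96e-06). PYK10 also fell in se-1 (log2 change -1.09, limma adjusted p = 0.0455). It was higher again in se-1 p35S::MIR156 than in se-1, with 1941 ± 560.1 against 786 ± 208 (SD, n = 2, log2 change 1.28, limma adjusted p = 0.0356). How far these differences bear on the chloroplast values was not tested.

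Most chloroplast probe sets were well above background. In 57 of 69 the signal exceeded the background on all 8 arrays, and in the other 12 it did so on some arrays. Mean signals ran from 13.6 for ndhF to 5574 for atpB, and 16 probe sets had means over 1000. Signals of different probe sets depend on their probes as well as on the transcripts, so no order of abundance between genes is drawn from them. The probe sets of ndhF and ndhJ fell among the dimmest 30% of the whole array and were not tested, which leaves 67 members.

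Between 0 and 3 of the 67 chloroplast transcripts passed the test in each comparison of genotypes. Differences are on the log2(signal + 16) scale, from a linear model with limma over all 15922 probe sets tested, and a probe set is called where its Benjamini-Hochberg adjusted p is under 0.05. In se-1 minus Col-0, 0 of 67 were called by limma, against a background of 1.09% of all probe sets tested. In se-1 p35S::MIR156, 0 were called against Col-0 (background 0.842%) and 0 against se-1 (background 0.358%). The mutant ago1-27 had 2 called against Col-0 (background 1.66%), of which 1 was higher (background 0.754%) and 1 lower (background 0.911%). Against se-1 it had 1 called (background 3.37%), which was higher (background 1.19%). Against se-1 p35S::MIR156 it had 3 called (background 6.93%), 2 higher (background 2.97%) and 1 lower (background 3.96%). These 6 calls in 402 tests concern 3 genes, psbC, ndhG and psbK. A test of any difference among the 4 genotypes, limma's F test, called psbC and ndhG (background 5.34%). At an unadjusted limma p under 0.05 the count was 11 in se-1 minus Col-0 (16.4% of members, 12% of all probe sets). For se-1 p35S::MIR156 the counts were 3 against Col-0 (4.48% of members, 9.4% of all) and 7 against se-1 (10.4%, 9.04%). For ago1-27 they were 15 against Col-0 (22.4% of members, 13.1% of all), 10 against se-1 (14.9%, 15.8%) and 11 against se-1 p35S::MIR156 (16.4%, 21.4%).

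The arrays limited how small a difference could be called. The median half-width of the 95% interval of a member's log2 change was 0.49, with a range from 0.28 to 0.90, the same in each comparison because all genotypes have 2 arrays and share 1 estimate of the spread. The whole interval lay within a 2-fold change in either direction for 57 of 67 members in se-1 minus Col-0 and for 49 in ago1-27 minus Col-0. It did so for 63 in se-1 p35S::MIR156 minus Col-0, 58 in se-1 p35S::MIR156 minus se-1, 52 in ago1-27 minus se-1 and 52 in ago1-27 minus se-1 p35S::MIR156. For dim probe sets the added 16 makes this scale understate a fold change. The tissue is a mixture of cells, so fewer cells of a type and less RNA per cell cannot be told apart.

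**Figure D1:**
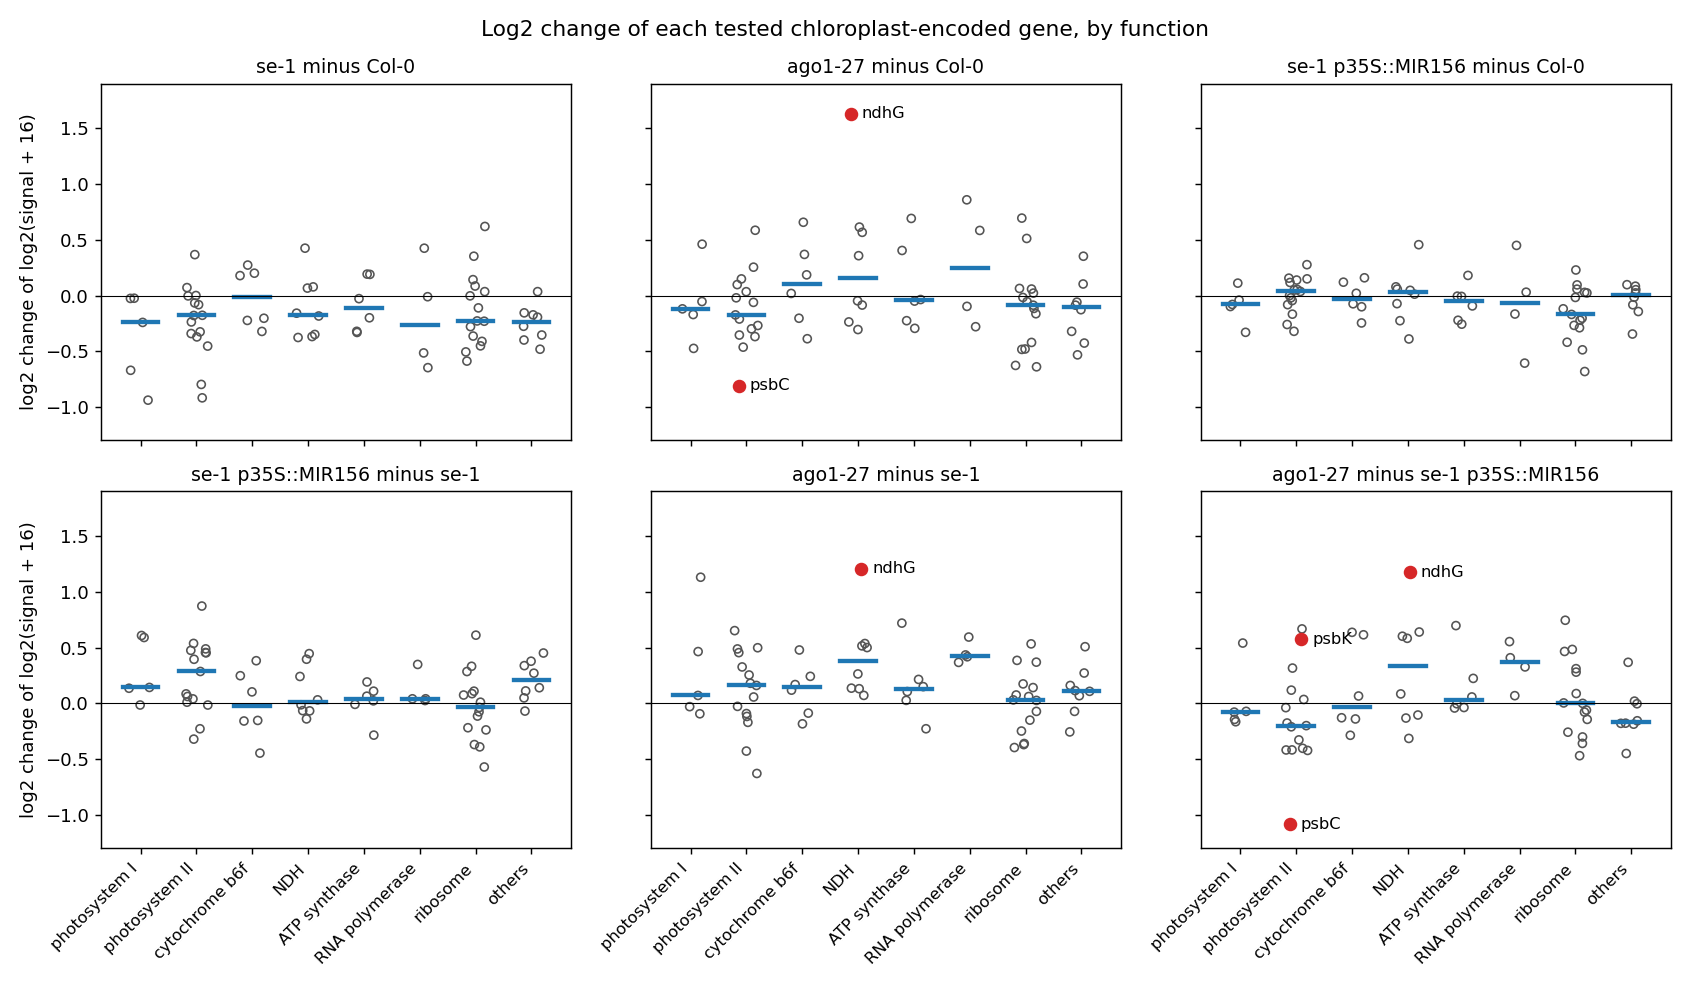
Log2 change of log2(signal + 16) for each of the 67 tested chloroplast genes, in columns by function, with 1 panel per comparison; open circles are single genes, filled red circles those with an adjusted p under 0.05, and blue bars the median of a group. Only ndhG, psbC and psbK are filled, and they are filled only in panels with ago1-27.

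The photosystem I genes encode the reaction centre pair PsaA and PsaB, the iron-sulphur protein PsaC, which passes electrons to ferredoxin, and the small subunits PsaI and PsaJ. None of the 5 was called in any of the 6 comparisons. All 5 had a negative change in se-1 against Col-0 (median -0.24, 0.02 over all probe sets), though 1 of the 5 was positive under quantile normalization. The changes in that comparison ran from -0.94 for psaI to -0.02 for psaA.

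The signals of psaI, replicate 1 before replicate 2 here and below, were 384 and 243 for Col-0, 311 and 148 for ago1-27, 161 and 144 for se-1 and 244 and 236 for se-1 p35S::MIR156. Both se-1 arrays were below both Col-0 and both se-1 p35S::MIR156 arrays, and 1 ago1-27 array was as low as se-1. The log2 change in se-1 against Col-0 was -0.94 ± 0.28 (SE), with a limma adjusted p of 0.139. It passed the threshold in 2 of 8 fits that left out 1 array, those without either ago1-27 array. The psaB signals were 3043 and 2809 for Col-0, 2278 and 3176 for ago1-27, 2150.4 and 3832 for se-1 and 2879 and 2804 for se-1 p35S::MIR156. Here the se-1 arrays spanned all the others, and the genotype means differed by less than the spread between replicates. The psaC signals were 24 and 32.6 for Col-0, 38 and 52.2 for ago1-27, 23.4 and 3.46 for se-1 and 32.5 and 19.8 for se-1 p35S::MIR156. Both ago1-27 arrays were the highest, and 1 se-1 array was within background. The change of psaC in ago1-27 against se-1 was 1.13 ± 0.35 (SE), with a limma adjusted p of 0.0974.

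Photosystem II was represented by 15 genes. They include psbA and psbD for the reaction centre proteins D1 and D2, psbB and psbC for the chlorophyll-binding core antennae CP47 and CP43, psbE and psbF for cytochrome b559, and genes for small subunits. Of the 15, 1 fell in ago1-27 against Col-0, 1 rose and 1 fell against se-1 p35S::MIR156, and none passed the test in the other 4 comparisons. Against Col-0 the median change was -0.18 for se-1, -0.17 for ago1-27 and 0.04 for se-1 p35S::MIR156.

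The gene that fell was psbC. Its signals were 873 and 1185 for Col-0, 630.4 and 523 for ago1-27, 944 and 851 for se-1 and 1197 and 1275 for se-1 p35S::MIR156. Both ago1-27 arrays were below the other 6, and both se-1 p35S::MIR156 arrays were above the other 6. Against se-1 p35S::MIR156 the log2 change in ago1-27 was -1.08 ± 0.18 (SE, 95% interval -1.47 to -0.70, limma adjusted p = 0.00175). That call was kept in all 8 fits that left out 1 array, with adjusted p between 0.00180 and 0.0330. Against Col-0 the change was -0.81 ± 0.18 (SE, limma adjusted p = 0.0331). This second call was lost without Col-0 replicate 2 (-0.59, adjusted p = 0.325) or ago1-27 replicate 2 (-0.68, adjusted p = 0.193). It was also lost without replicate 1 or 2 of se-1 p35S::MIR156 (adjusted p = 0.0606 and 0.0604), when dim probe sets were kept (0.109), without a trend in eBayes (0.105), and with only the 2 genotypes in the fit (0.0679). Against se-1 the change was -0.63 with an adjusted p of 0.0738, and se-1 p35S::MIR156 minus se-1 gave 0.46 (adjusted p = 0.459). The comparisons share arrays and are not independent.

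The psbC reading frame overlaps that of psbD, and both are transcribed in 1 unit with psbZ. In ago1-27 against Col-0 the changes were -0.02 for psbD and -0.21 for psbZ, beside -0.81 for psbC. The psbD signals were 78.7 and 129 for Col-0, 81.9 and 121 for ago1-27, 118 and 96.9 for se-1 and 115 and 114 for se-1 p35S::MIR156. The psbZ signals were 824 and 829.6 for Col-0, 850.1 and 596 for ago1-27, 589 and 686 for se-1 and 956 and 843 for se-1 p35S::MIR156. For both of these neighbours the ago1-27 arrays overlapped the Col-0 arrays or lay on both sides of them. Whether the psbC probe set also detects psbD transcripts is not given in the sources used here.

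The gene that rose was psbK, for a small photosystem II subunit. Its signals were 2441 and 2622 for Col-0, 3067 and 2975 for ago1-27, 2410.2 and 2656 for se-1 and 2221 and 1841 for se-1 p35S::MIR156. Both ago1-27 arrays were above the other 6, and both se-1 p35S::MIR156 arrays were below the other 6. The log2 change in ago1-27 was 0.58 ± 0.15 (SE, limma adjusted p = 0.0320) against se-1 p35S::MIR156 and 0.25 (adjusted p = 0.526) against Col-0. The first was lost without se-1 p35S::MIR156 replicate 2 (0.44, adjusted p = 0.300), without its replicate 1 (0.0633), without ago1-27 replicate 1 or 2 (0.0775 and 0.0724) and without Col-0 replicate 1 (0.0503). It was also lost with no filter (0.0814), without a trend (0.101) and with only the 2 genotypes in the fit (0.0588). The gene next to it, psbI, had -0.21 in the same comparison.

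The largest replicate gaps of the group were in psbM, another small subunit. Its signals were 1498 and 3038 for Col-0, 2154 and 1106 for ago1-27, 1779 and 706 for se-1 and 3021 and 1414 for se-1 p35S::MIR156. In each genotype the 2 replicates differed by more than the fitted genotype values did, and the change in se-1 against Col-0 of -0.92 ± 0.42 (SE) had a limma adjusted p of 0.407. The psbJ signals were 884 and 818 for Col-0, 1409 and 1170.1 for ago1-27, 639.8 and 1028 for se-1 and 861 and 748 for se-1 p35S::MIR156, chosen after the values were seen. Both ago1-27 arrays were above the other 6, with a change of 0.59 (adjusted p = 0.209) against Col-0 and 0.67 (adjusted p = 0.0633) against se-1 p35S::MIR156 by limma. The other genes of its unit, psbE, psbF and psbL, had 0.03, 0.15 and 0.10 in ago1-27 against Col-0. The psbA probe set was the only one of the 67 with both se-1 arrays above the other 6, at 165 and 198 for Col-0, 199 and 149.8 for ago1-27, 219 and 259 for se-1 and 200.4 and 201 for se-1 p35S::MIR156. Its change in se-1 was 0.37 ± 0.20 (SE, 95% interval -0.05 to 0.79) against Col-0 and was not called by limma.

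The cytochrome b6f complex links the photosystems, and its chloroplast genes are petA for cytochrome f, petB for cytochrome b6, petD for subunit IV, and petG, petL and petN for small subunits. None of the 6 was called in any comparison. The petB signals were 2025 and 1784 for Col-0, 1561 and 1740.4 for ago1-27, 1271 and 1810.2 for se-1 and 1569 and 2075 for se-1 p35S::MIR156, with overlap between every pair of genotypes except Col-0 and ago1-27, whose arrays did not overlap and differed by -0.20 ± 0.19 (SE). The petN signals were 82.4 and 52.5 for Col-0, 99.1 and 129.7 for ago1-27, 74.7 and 79.3 for se-1 and 68 and 66.6 for se-1 p35S::MIR156. The 2 ago1-27 arrays were above the other 6, and the change against Col-0 was 0.66 ± 0.23 (SE, limma adjusted p = 0.216). The petD signals were 19.9 and 21.4 for Col-0, 25.4 and 38 for ago1-27, 20.9 and 32 for se-1 and 7.17 and 25.1 for se-1 p35S::MIR156, with 6 of 8 arrays above background and changes of 0.37 in ago1-27 and -0.25 in se-1 p35S::MIR156 against Col-0.

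The NDH genes encode subunits of a complex that carries electrons from ferredoxin back to the plastoquinone pool, a route of cyclic electron flow around photosystem I. Of 10 members 8 were tested. The gene ndhG rose in ago1-27 against each of the other 3 genotypes, and none was called in the 3 comparisons without ago1-27. All 8 had a positive change in ago1-27 against se-1, with a median of 0.38 (all probe sets 0.00). Against Col-0 the split was 4 positive and 4 negative, with a median of 0.15, and against se-1 p35S::MIR156 it was 5 positive and 3 negative, with a median of 0.33.

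The ndhG gene encodes a membrane subunit of the complex. Its signals were 50.2 and 16.1 for Col-0, 121 and 133 for ago1-27, 56 and 37.3 for se-1 and 40.4 and 54.9 for se-1 p35S::MIR156. In ago1-27 both arrays were more than 2-fold above every other array, and 1 Col-0 array lay within background. The log2 change in ago1-27 was 1.63 ± 0.31 (SE, 95% interval 0.97 to 2.29, limma adjusted p = 0.0123) against Col-0. Against se-1 it was 1.21 ± 0.31 (SE, limma adjusted p = 0.0445), and against se-1 p35S::MIR156 1.17 ± 0.31 (SE, limma adjusted p = 0.0319). With 1 or 64 in place of 16 the change against Col-0 was 2.11 or 1.00, and with 64 it was 0.79 against se-1 and 0.78 against se-1 p35S::MIR156. The call against Col-0 was lost without Col-0 replicate 2, the array within background (1.11, adjusted p = 0.164), without ago1-27 replicate 2 (1.57, adjusted p = 0.0892) and with no filter (0.110).

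The calls of ndhG against the other genotypes were kept in fewer of the fits that left out 1 array than the call against Col-0. Against se-1 the call was kept in 2 of 8 fits that left out 1 array, those without either Col-0 array. The adjusted p was 0.247 and 0.0734 without se-1 replicate 2 and 1, 0.170 and 0.0951 without ago1-27 replicate 2 and 1, and 0.0653 and 0.0669 without replicate 1 and 2 of se-1 p35S::MIR156. Against se-1 p35S::MIR156 it was kept in 4 of 8 fits, with adjusted p of 0.204 and 0.104 without that line's replicate 1 and 2, and of 0.0771 and 0.135 without ago1-27 replicate 1 and 2. With a pseudocount of 1, no filter or no trend, the adjusted p was 0.0941, 0.157 and 0.0707 against se-1 and 0.0705, 0.117 and 0.0503 against se-1 p35S::MIR156. The direction was the same in all of these fits.

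The ndhG gene lies in a long transcription unit that runs from ndhH through ndhA, ndhI, ndhG, ndhE and psaC to ndhD. The 2 ago1-27 arrays were above the other 6 for the last 4 genes of this unit, which neighbour each other, a pattern noticed after the values were seen. The ndhE signals were 21.4 and 14.8 for Col-0, 35 and 36.9 for ago1-27, 16.9 and 23 for se-1 and 14.1 and 22.9 for se-1 p35S::MIR156. Both se-1 arrays were within background, so that ago1-27 was at least 1.54-fold above se-1, and the change against Col-0 was 0.61 ± 0.30 (SE, limma adjusted p = 0.408). The ndhD signals were 124 and 134 for Col-0, 181 and 159.6 for ago1-27, 104 and 125 for se-1 and 114 and 102 for se-1 p35S::MIR156, with changes of 0.36 (adjusted p = 0.472) against Col-0 and 0.58 (adjusted p = 0.0872) against se-1 p35S::MIR156. The psaC values given above complete the run. Of these 4 genes only ndhG was called, and psaC and ndhE were close to background.

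The first 3 genes of the unit did not show this order. The ndhI signals, for an iron-sulphur subunit, were 1044 and 778 for Col-0, 876 and 602 for ago1-27, 632 and 756 for se-1 and 702 and 668 for se-1 p35S::MIR156. The ndhA signals were 166 and 106 for Col-0, 133 and 91.8 for ago1-27, 84.5 and 117 for se-1 and 139 and 144 for se-1 p35S::MIR156. The ndhH signals were 17.8 and 30.2 for Col-0, 14.2 and 32.5 for ago1-27, 29.2 and 10.8 for se-1 and 24.3 and 26 for se-1 p35S::MIR156, near background. In each of these the ago1-27 arrays overlapped the Col-0 arrays or lay on both sides of them, with changes against Col-0 of -0.31, -0.24 and -0.05.

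**Figure D2:**
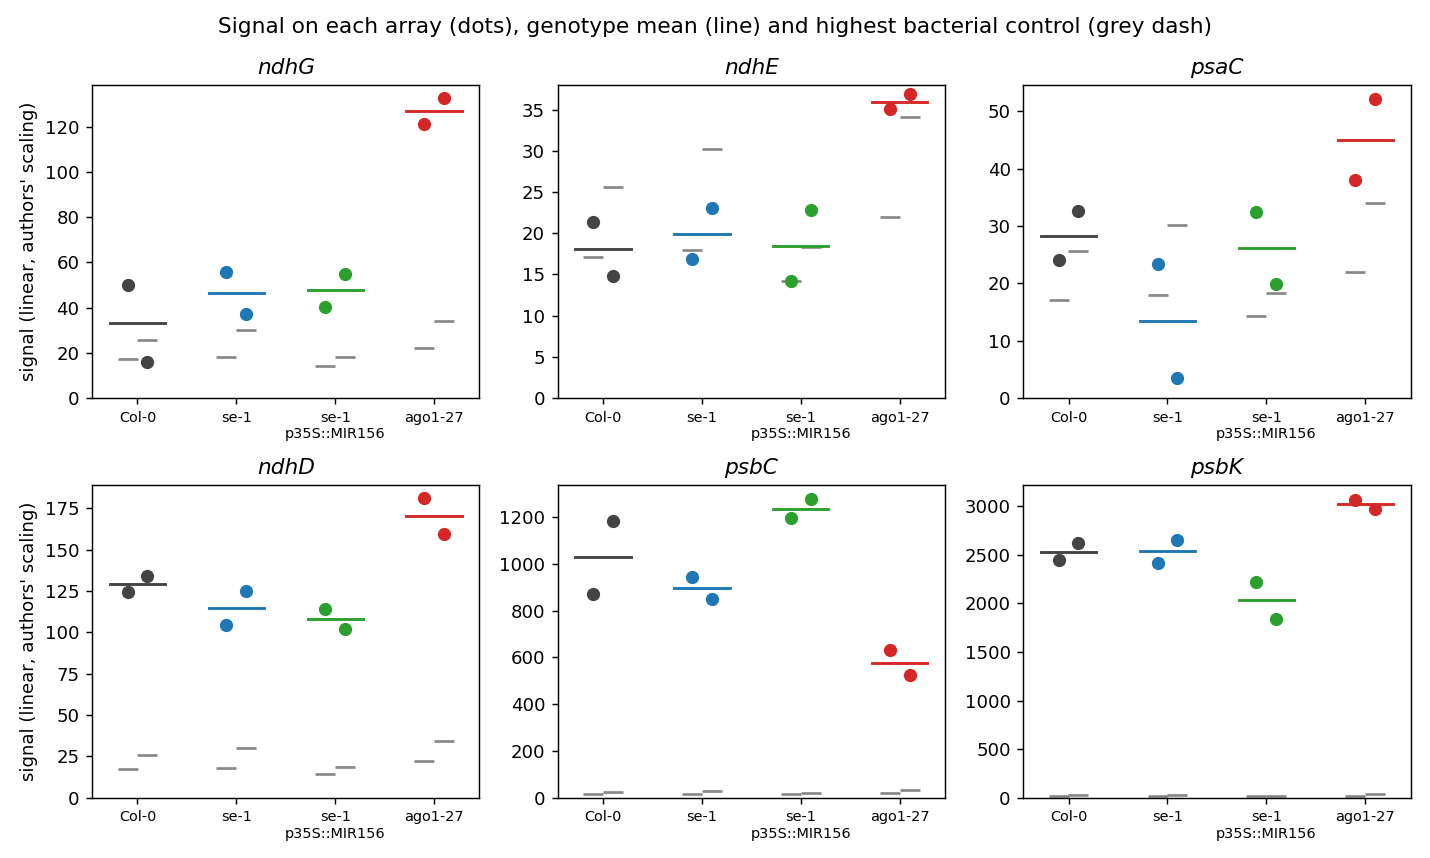
Linear signal on each of the 8 arrays for ndhG, ndhE, psaC, ndhD, psbC and psbK, by genotype; dots are arrays, coloured lines the mean of 2 arrays, and grey dashes the highest bacterial control signal of that array. The ago1-27 dots are the highest in each panel but psbC, where they are the lowest, and the ndhE and psaC signals lie close to the grey dashes.

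Elsewhere in the NDH group, ndhC, for a membrane subunit, gave 1307 and 862 for Col-0, 1411 and 707 for ago1-27, 841 and 819.6 for se-1 and 1155 and 1042 for se-1 p35S::MIR156. The ago1-27 arrays held both the highest and the lowest of the 8 values. The ndhK signals, from the same unit, were 21.6 and 29.1 for Col-0, 49.4 and 40.9 for ago1-27, 22.6 and 32.2 for se-1 and 19.9 and 26.7 for se-1 p35S::MIR156, with both ago1-27 arrays above the other 6 and a change of 0.57 (adjusted p = 0.417) against Col-0. The ndhJ signals, from the third gene of that unit, were 39.4 and 31 for Col-0, 9.23 and 24.5 for ago1-27, 20.3 and 9.83 for se-1 and 23.1 and 4.37 for se-1 p35S::MIR156, and 4 of 8 arrays were above background. Both Col-0 arrays were the highest there, but ndhJ was too dim to be tested. For ndhF 2 of 8 arrays were above background.

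The ATP synthase genes encode the alpha, beta and epsilon subunits of the catalytic head (atpA, atpB, atpE) and the membrane subunits (atpF, atpH, atpI). None of the 6 was called in any comparison. The atpB signals were 6483 and 6234 for Col-0, 5417 and 5453 for ago1-27, 4913 and 5192 for se-1 and 5452 and 5446 for se-1 p35S::MIR156. Both Col-0 arrays were above and both se-1 arrays were below all others, and the change of -0.33 ± 0.13 (SE) in se-1 had a limma adjusted p of 0.307. Its 95% interval was -0.61 to -0.05. The partner gene in the same unit, atpE, had -0.20 ± 0.14 (SE) in se-1 and -0.05 ± 0.14 in ago1-27 against Col-0. The atpH signals, for the ring-forming subunit c, were 177 and 242 for Col-0, 299 and 395 for ago1-27, 196 and 209 for se-1 and 259 and 164 for se-1 p35S::MIR156. In ago1-27 both arrays were above the other 6, with changes of 0.69 (adjusted p = 0.179) against Col-0 and 0.70 (adjusted p = 0.0849) against se-1 p35S::MIR156. The atpI signals were 19.7 and 20.6 for Col-0, 25.1 and 39.7 for ago1-27, 22.1 and 28.5 for se-1 and 22.3 and 27.8 for se-1 p35S::MIR156, close to background. In the rps2, atpI, atpH, atpF and atpA unit, the changes in ago1-27 against Col-0 were -0.48, 0.40, 0.69, -0.04 and -0.29, so neighbours in 1 unit had opposite signs.

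The genes rpoA, rpoB, rpoC1 and rpoC2 encode the alpha, beta, beta' and beta'' subunits of the bacterial-type chloroplast RNA polymerase, which transcribes most photosynthesis genes. None of the 4 was called. All 4 had positive changes in ago1-27 against se-1 (median 0.43) and against se-1 p35S::MIR156 (median 0.37), also under quantile normalization and with array medians aligned. Against Col-0 the median was 0.24 for ago1-27, -0.26 for se-1 and -0.07 for se-1 p35S::MIR156.

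The 3 genes of the rpoB unit did not share 1 pattern. The rpoB signals were 15.4 and 9.13 for Col-0, 32.7 and 37.3 for ago1-27, 23.6 and 19.9 for se-1 and 24.2 and 20.6 for se-1 p35S::MIR156. Both Col-0 arrays were within background and both ago1-27 arrays were the highest. By geometric means, the signal in ago1-27 was at least 1.665-fold above Col-0, with a fitted change of 0.86 ± 0.30 (SE, limma adjusted p = 0.199). Both se-1 p35S::MIR156 arrays were above their own background, and 1 of 2 se-1 arrays was. Both se-1 p35S::MIR156 signals were below the highest bacterial signal of Col-0 replicate 2 (25.6), so no bound over Col-0 is given for that line. The rpoC2 signals were 104 and 142 for Col-0, 104 and 91.3 for ago1-27, 64 and 80.7 for se-1 and 80.4 and 68.9 for se-1 p35S::MIR156. The Col-0 arrays were the highest, the lower of them level with 1 ago1-27 array, and the change was -0.65 (adjusted p = 0.220) for se-1 and -0.61 (adjusted p = 0.341) for se-1 p35S::MIR156. The rpoC1 signals were 241 and 225 for Col-0, 222 and 212 for ago1-27, 168 and 149.6 for se-1 and 196 and 216 for se-1 p35S::MIR156, with both Col-0 arrays above and both se-1 arrays below all others. The rpoA gene lies in the ribosomal protein unit, and its signals were 578 and 633 for Col-0, 978 and 855 for ago1-27, 864 and 416 for se-1 and 733 and 521 for se-1 p35S::MIR156. The 2 ago1-27 arrays were above both Col-0 arrays, and 1 se-1 array reached the ago1-27 level.

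Ribosomal proteins made up 15 members, for the small (rps) and large (rpl) subunit. None was called. In se-1 against Col-0 5 were positive and 10 negative, with a median of -0.23, and the medians in ago1-27 and se-1 p35S::MIR156 were -0.09 and -0.17. The rpl33 signals were 2002 and 1543 for Col-0, 1215 and 1056 for ago1-27, 1436 and 1558 for se-1 and 1623 and 1309 for se-1 p35S::MIR156. In ago1-27 both arrays were below the other 6, with a change of -0.63 ± 0.18 (SE) against Col-0 and a limma adjusted p of 0.101. The rps18 gene, next to rpl33, had both ago1-27 arrays above the other 6, at 188 and 212 against 135 and 135 in Col-0 (change 0.51, adjusted p = 0.293 by limma). The rps15 signals were 60.4 and 38.7 for Col-0, 53.5 and 49.6 for ago1-27, 46.9 and 41 for se-1 and 31.9 and 17.9 for se-1 p35S::MIR156. Both se-1 p35S::MIR156 arrays were the lowest, with a change of -0.68 (adjusted p = 0.412) against Col-0. The rps14 signals were 17.2 and 15.7 for Col-0, 52.3 and 24.4 for ago1-27, 48.3 and 22.8 for se-1 and 23 and 21.1 for se-1 p35S::MIR156. The Col-0 arrays were the lowest of the 8, and 1 array each of se-1 and ago1-27 stood about 2-fold above its replicate.

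The other 8 genes were rbcL for the large subunit of Rubisco, accD for a subunit of acetyl-CoA carboxylase, matK for an intron maturase, clpP for a protease subunit, ccsA for haem attachment to c-type cytochromes, cemA for an envelope protein, and ycf3 and ycf4 for photosystem I assembly factors. None was called. In se-1 against Col-0, 7 of 8 were negative, with a median of -0.23. The clpP signals were 1118 and 902 for Col-0, 831 and 1988 for ago1-27, 925 and 877 for se-1 and 924 and 1068 for se-1 p35S::MIR156. The ago1-27 arrays held the lowest and the highest value of the 8. The ycf3 signals were 224 and 210.4 for Col-0, 154 and 137 for ago1-27, 149 and 209 for se-1 and 165 and 169.7 for se-1 p35S::MIR156. Both Col-0 arrays were the highest, and the change in ago1-27 was -0.53 ± 0.20 (SE, limma adjusted p = 0.243). The rbcL signals were 254 and 151 for Col-0, 156 and 215 for ago1-27, 138 and 207 for se-1 and 192 and 177 for se-1 p35S::MIR156, with the Col-0 arrays spanning 5 of the other 6 and changes from Col-0 of -0.19, -0.08 and -0.09 in se-1, se-1 p35S::MIR156 and ago1-27. The matK signals were 670.1 and 691 for Col-0, 665 and 581 for ago1-27, 514 and 511 for se-1 and 771 and 647 for se-1 p35S::MIR156. Both se-1 arrays were the lowest, with a change of -0.40 (adjusted p = 0.346) against Col-0 by limma.

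Which chloroplast transcripts depend on SERRATE was addressed by setting se-1 against Col-0. Small negative differences were more frequent than positive ones. Of 67 tested members 18 were positive and 49 negative, with a median log2 change of -0.19, against 0.02 over all probe sets. Both se-1 arrays were below both Col-0 arrays in 22 members (background 19.9%) and above in 7 (background 23%). Negative values were more frequent among the brighter probe sets. Among the 23 dimmest members 13 were positive, among the 22 in the middle 3 were positive (median -0.26), and among the 22 brightest 2 were positive (median -0.22). Probe sets of the whole array in the same signal ranges had medians of 0.04, 0.02 and -0.06. Each array's median deviation from the members' own means was 0.05 and 0.05 for Col-0, 0.03 and 0.02 for ago1-27, -0.13 and -0.07 for se-1 and 0.06 and -0.01 for se-1 p35S::MIR156. The 2 se-1 arrays were the lowest, and the pooled spread between replicate arrays was 0.03 (SD). Without se-1 replicate 1 the median of se-1 minus Col-0 was -0.11. As no member was called by limma, this is a description of the 67 values.

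What the transgene adds in the mutant was addressed by setting se-1 p35S::MIR156 against se-1. This contrast shares the se-1 arrays with the comparison above, so that low se-1 values enter both with opposite signs. Here 45 members were positive and 22 negative, with a median of 0.07 (all probe sets -0.03). Both se-1 p35S::MIR156 arrays were above both se-1 arrays in 21 members (background 17%) and below in 6 (background 24.7%). Photosystem II genes were positive in 12 of 15, with a median of 0.29. Without se-1 replicate 1 the median of all members was -0.0046. The root marker PYK10 was higher in the same contrast, with the values given above. Against Col-0, se-1 p35S::MIR156 gave 29 positive and 38 negative members and a median of -0.02, the same to 2 decimals as over all probe sets. Both of its arrays were above Col-0 in 6 members (background 18.5%) and below in 13 (background 22.6%).

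Dependence on ARGONAUTE1 was addressed by setting ago1-27 against Col-0. Differences went both ways, with 25 positive and 42 negative members and a median of -0.06 (all probe sets 0.02). The 2 ago1-27 arrays were above both Col-0 arrays in 15 members (background 22.4%) and below in 17 (background 18.5%). Against se-1, 48 were positive and 19 negative, with a median of 0.14, and the arrays did not overlap in 18 members higher (background 21.6%) and 5 lower (background 21.7%). Against se-1 p35S::MIR156, 30 were positive and 37 negative, with a median of -0.04, and 17 were higher without overlap (background 28.7%) and 14 lower (background 21.9%). Without ago1-27 replicate 1 that last median was 0.03.

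Counting a genotype against all the others gave 11 members with both ago1-27 arrays above the other 6 (background 9.63%) and 2 with both below (background 7.69%). The 11 were psbK, atpH, rpoB, petN, ndhK, psbJ, rps18, ndhD, psaC, ndhE and ndhG. They belong to photosystems I and II, cytochrome b6f, NDH, the ATP synthase, the RNA polymerase and the ribosome. The 2 below were psbC and rpl33. Both Col-0 arrays were above the other 6 in 6 members, atpA, atpB, rps2, rpoC1, rpoC2 and ycf3 (background 3.51%), and below in 3, atpI, rpoB and rps14 (background 3.88%). For se-1 the counts were 1 above (background 5.64%) and 4 below, matK, rpoC1, atpB and psbN (background 4.45%). For se-1 p35S::MIR156 they were 1 above (background 4.55%) and 2 below, psbK and rps15 (background 7.26%). These counts were added after the values were seen and carry no test.

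**Figure D3:**
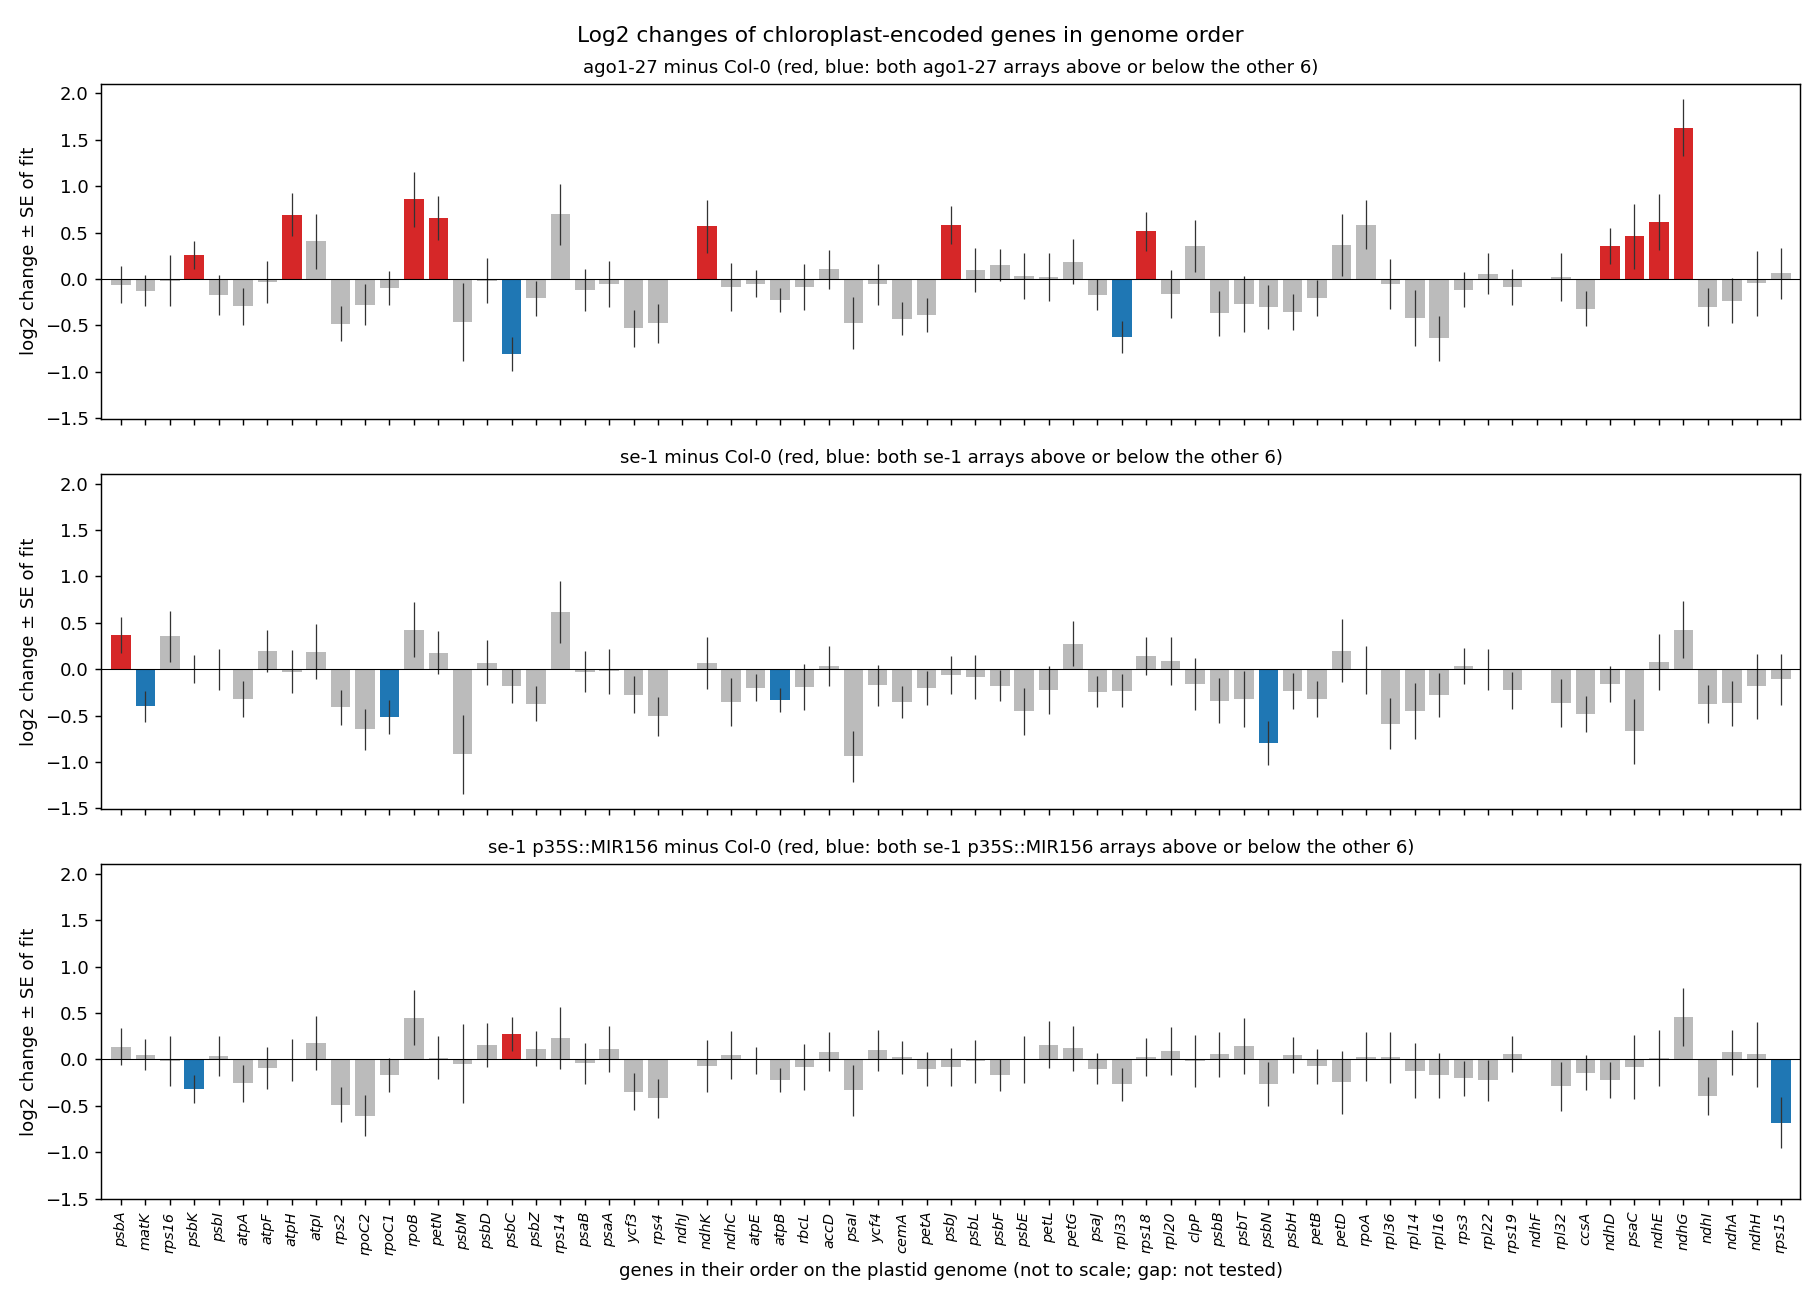
Log2 change of log2(signal + 16) with the SE of the fit for chloroplast genes in their order on the plastid genome, in 3 genotypes against Col-0; red and blue bars mark genes for which both arrays of the mutant lay above or below the other 6 arrays. The red bars of ago1-27 form 1 run of 4 neighbours, ndhD to ndhG, beside the neighbouring pair rpoB and petN and single genes, while most bars of se-1 point down.

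The log2 changes of neighbouring genes correlated weakly. Across 66 pairs of tested neighbours on the genome, Pearson's r of the log2 change was -0.05 in se-1 minus Col-0, 0.14 in ago1-27 minus Col-0 and 0.05 in se-1 p35S::MIR156 minus Col-0. Both genes of a pair had the same sign in 39, 39 and 33 of the 66 pairs. In se-1 p35S::MIR156 minus se-1, r was 0.01. It was 0.16 in ago1-27 minus se-1 and 0.18 in ago1-27 minus se-1 p35S::MIR156. The changes carry the wide intervals given above, so a low r does not show that neighbours changed apart. Pairs share arrays and genes and are not independent, so these are descriptions. They include pairs across the borders of transcription units.

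The functional groups were set side by side across the 4 genotypes by the median deviation of their members from each member's own mean over 8 arrays. For the 20 photosystem genes these medians were -0.05 and 0.12 for Col-0, 0.02 and 0.02 for ago1-27, -0.05 and -0.14 for se-1 and 0.10 and 0.08 for se-1 p35S::MIR156. Both se-1 values were low, and 1 Col-0 array was as low as the higher of them. For the 8 NDH genes they were -0.04 and -0.08 for Col-0, 0.43 and 0.30 for ago1-27, -0.23 and -0.04 for se-1 and -0.12 and 0.01 for se-1 p35S::MIR156. Here both ago1-27 values were the highest of the 8. For the 6 ATP synthase genes they were -0.03 and 0.08 for Col-0, -0.02 and 0.07 for ago1-27, -0.15 and 0.01 for se-1 and -0.02 and -0.02 for se-1 p35S::MIR156. For the 19 gene-expression genes, the polymerase and ribosomal proteins together, they were 0.18 and 0.02 for Col-0, 0.18 and -0.07 for ago1-27, -0.05 and 0.00 for se-1 and 0.09 and -0.22 for se-1 p35S::MIR156. In these 2 groups the arrays of a genotype differed from each other by amounts similar to those between genotypes. The 4 polymerase genes alone gave 0.27 and 0.20 for ago1-27 and -0.01 and 0.03 for Col-0. They gave -0.09 and -0.26 for se-1 and 0.02 and -0.18 for se-1 p35S::MIR156, so both ago1-27 values were the highest. For the 15 ribosomal protein genes alone the values were -0.07 and -0.18 for ago1-27 and 0.25 and 0.02 for Col-0. Members of a group share arrays and, in part, transcripts, so no test was made on the group values.

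Nuclear genes for plastid proteins were taken from 9 lists covering photosystem and antenna subunits, other photosynthetic complexes, carbon fixation, chlorophyll synthesis, plastid ribosomal proteins, polymerases and RNA processing. Single-gene probe sets were found for 17 of the 130 genes listed, and all 17 were tested, so each list is covered only in small part. None passed the limma test in the 3 comparisons among Col-0, se-1 and se-1 p35S::MIR156, nor in ago1-27 minus Col-0. In ago1-27, 4 of the 17 rose against se-1 and 5 against se-1 p35S::MIR156, and 0 fell in either. Over all probe sets 1.19% rose against se-1, and 2.97% rose and 3.96% fell against se-1 p35S::MIR156. The nuclear genes that rose included NdhL, a nuclear subunit of the NDH complex, with 1.09 against se-1 (limma adjusted p = 0.00667) and 0.72 against se-1 p35S::MIR156 (adjusted p = 0.0443). The photosystem I subunit PSAN had 0.82 and 0.62 (adjusted p = 0.0156 and 0.0424 by limma). The photosystem II protein PSBY had 0.97 and 0.85 (adjusted p = 0.0359 and 0.0422 by limma). CHLM, an enzyme of chlorophyll synthesis, rose against both, and the antenna gene LHCB4.2 rose against se-1 p35S::MIR156.

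The nuclear genes for plastid proteins and the chloroplast genes differed in their medians. The nuclear lists also cover carbon fixation, chlorophyll synthesis and RNA processing, so the 2 sets are not matched by function. In ago1-27 against Col-0, 14 of 17 nuclear genes were positive with a median of 0.33, beside 25 of 67 chloroplast genes with a median of -0.06. Against se-1 p35S::MIR156 the medians were 0.34 for nuclear and -0.04 for chloroplast genes, with 16 of 17 and 30 of 67 positive. Against se-1 both medians of ago1-27 were positive, 0.57 for nuclear and 0.14 for chloroplast genes, with 16 of 17 and 48 of 67 positive. In se-1 p35S::MIR156 against se-1 they were 0.20 and 0.07, with 13 of 17 and 45 of 67 positive. In se-1 against Col-0 the medians were -0.21 and -0.19, with 3 of 17 and 18 of 67 positive. The difference between the 2 kinds of gene was not tested. The limit of poly(A) priming given above concerns the chloroplast signals, so the 2 medians may not be like measures. The 23 mitochondrial probe sets chosen by symbol, of which 15 were tested, had medians of 0.13 in se-1, -0.06 in se-1 p35S::MIR156 and 0.19 in ago1-27, each against Col-0. In se-1 p35S::MIR156 minus se-1 their median was -0.29 (all probe sets -0.03). For ago1-27 it was 0.14 against se-1 (all probe sets 0.00) and 0.43 against se-1 p35S::MIR156 (all probe sets 0.04). By limma 1 was called lower in ago1-27 against se-1, where 3.37% of all probe sets were called in either direction. Against se-1 p35S::MIR156 1 was called higher (background 2.97%).

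**Figure D4:**
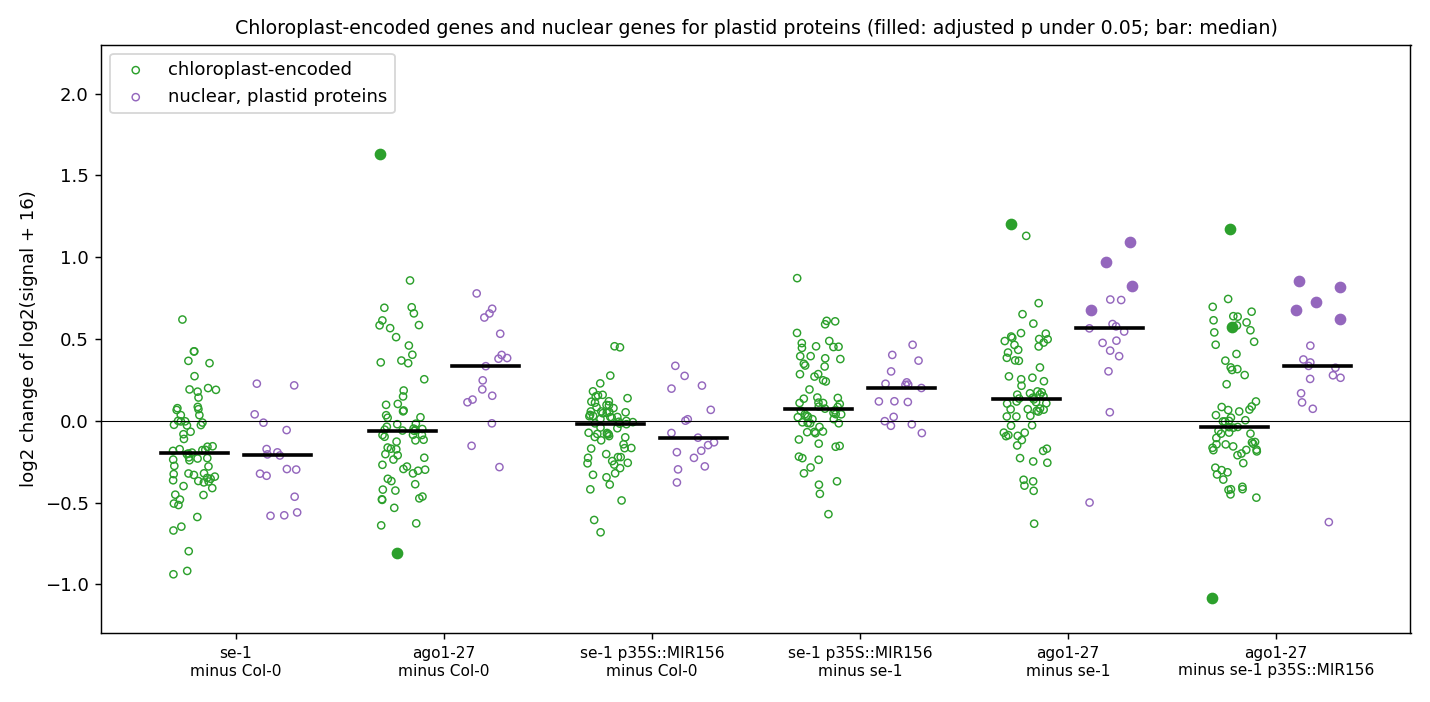
Log2 change of log2(signal + 16) for the 67 chloroplast genes (green) and 17 nuclear genes for plastid proteins (purple) in each of 6 comparisons; each circle is a gene, filled where the adjusted p is under 0.05, and black bars are medians. The purple medians lie above the green ones in the 3 comparisons of ago1-27 and in se-1 p35S::MIR156 minus se-1, and the medians of both sets are below 0 in se-1 minus Col-0.

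In 3 of the 4 genotypes, wide gaps between replicates were more frequent among chloroplast probe sets than over the whole array. A replicate gap over 0.5 on the log2 scale was found in 22.4% of members in Col-0 (all probe sets 12%), 20.9% in se-1 (14.1%), 23.9% in ago1-27 (19.9%) and 8.96% in se-1 p35S::MIR156 (10.6%). The widest gaps were those of ndhG in Col-0 (-1.04, replicate 2 minus replicate 1), psbM for se-1 (-1.31) and also for se-1 p35S::MIR156 (-1.09), and clpP in ago1-27 (1.24).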

How the data were processed

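Total RNA from 8 samples was amplified, biotin-labelled and hybridized to 1 Affymetrix ATH1 array each, per the labels' protocols. The deposited values are linear probe set intensities that the authors made with GCOS, per the submitters' processing notes; its version and signal algorithm are not given in the sources used here. Each array's 2% trimmed mean was 200.02, as scaled by the authors. No counts or detection calls are present, so precision rests on the number of arrays. Nothing in the labels says whether the replicates are separate plants, and the p-values therefore cover only the spread between these samples, which may be technical.

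After removal of 64 control probe sets, the deposited intensities were used as log2(signal + 16) without renormalization. The 30% with the lowest mean log2 value were also removed, which left 15922 of 22746 for testing. The linear model (limma 3.58.1, R 4.3.3; lmFit and eBayes with a trend) had a mean for each genotype, all 8 arrays, and 4 residual and 11.3 prior degrees of freedom. It was run on simulated data with added changes of 2-fold or more on the log2(signal + 16) scale. A recovery was required only for the larger of the changes added, so changes of 2-fold or less were not covered. Two-sided p-values were adjusted over all 15922 probe sets within each of 6 comparisons. For a genotype within background on both arrays, the bound on a fold is the other genotype's geometric mean over that of the highest bacterial signals.

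Genes were named through a probe annotation that pairs 13513 probe sets with 1 gene and 503 with several. Membership of the plastid genome and gene order came from RefSeq's gene table of assembly TAIR10.1. Values on every array are given for each called member and, in each of 8 functional groups, for the brightest and the 2 with the widest genotype means, and for neighbours described together. Those of psbA, psbJ, rbcL and matK were given outside this rule. The members and lists were chosen with earlier results of these data known. Alternatives were quantile normalization, aligned array medians, pseudocounts of 1 and 64, other filters, eBayes settings, a replicate block, 2 genotypes per fit, and each array left out.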

Additional observations from a re-analysis of the deposited data

How the results depend on the processing

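No direction reversed for a called gene, and the medians over all members crossed 0 only when an array was left out. Medians of 3 gene groups crossed it under another scaling: the ATP synthase in ago1-27 minus se-1 p35S::MIR156 went from 0.0267 to -0.0227 with quantile normalization and -0.0089 with medians aligned, the genes outside the named complexes in se-1 p35S::MIR156 minus Col-0 from 0.0040 to -0.0101 and -0.0134, and cytochrome b6f in se-1 p35S::MIR156 minus se-1 from -0.0253 to 0.0108 with medians aligned. The psbC call in ago1-27 minus se-1 p35S::MIR156 was the only one of the 6 that held in every fit run. Counts of called members moved as follows. In ago1-27 minus Col-0 (2), 0 were called with no filter, and 1 when the lowest 50% were left out, without a trend or with only the 2 genotypes in the fit. In ago1-27 minus se-1 (1), 0 were called with a pseudocount of 1, without a trend, and with either no filter or the stricter one. In ago1-27 minus se-1 p35S::MIR156 (3), 1 was called with no filter or without a trend. The F test (2) gave 1 under either change of the filter, and the stricter one removes ndhG. Median log2 changes moved by more than the spread between replicates in these cases: se-1 minus Col-0 to -0.25 with array medians aligned and -0.23 with the lowest 50% left out; ago1-27 minus Col-0 to -0.10 with quantile normalization, -0.11 aligned and -0.12 with the lowest 50% left out; se-1 p35S::MIR156 minus Col-0 to -0.0598 with the lowest 50% left out. In se-1 p35S::MIR156 minus se-1 the median was 0.11 aligned and 0.11 with the lowest 50% left out, in ago1-27 minus se-1 it was 0.10 with a pseudocount of 64, and in ago1-27 minus se-1 p35S::MIR156 it was -0.0731 aligned and -0.0750 with that filter. The causes were not tested.

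Leaving out each array in turn gave 0 to 1 called members in se-1 minus Col-0, 0 to 3 in ago1-27 minus Col-0, 0 to 0 in se-1 p35S::MIR156 minus Col-0 and minus se-1, 0 to 3 in ago1-27 minus se-1, 1 to 4 in ago1-27 minus se-1 p35S::MIR156 and 0 to 4 in the F test. Medians ranged from -0.19 to -0.11, -0.12 to -0.0407, -0.10 to 0.0073, -0.0046 to 0.13, 0.10 to 0.24 and -0.0572 to 0.0261 in se-1 minus Col-0, ago1-27 minus Col-0, se-1 p35S::MIR156 minus Col-0, se-1 p35S::MIR156 minus se-1, ago1-27 minus se-1 and ago1-27 minus se-1 p35S::MIR156. Where 1 array of a genotype is left, it is assumed to vary like the others. The labels do not say whether samples with the same replicate number share more than that number. Their deviations correlated between -0.21 and 0.11 over 6 pairs of genotypes, which cannot show whether they were handled together. With a replicate block the counts of called members were again 0, 2, 0, 0, 1 and 3, and 2 in the F test. The number of members with both ago1-27 arrays above the other 6 was 12 with quantile normalization and 11 with medians aligned or no filter, alternatives chosen after seeing the data. Signals within background on 1 or more arrays limit atpI, rpoB, rps14, ndhJ, psbT, petD, ndhF, psaC, ndhE, ndhG, ndhH and rps15.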
